A study of Mus musculus with 2 samples.

Results

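Among the leukocytes of Lewis lung carcinoma (LLC) tumors, one group of macrophages combined the complement genes C1qa, C1qb and C1qc with Cd300e, Clec4b1 or Pparg. These cells were chosen by their own RNA. A cell was taken when its C1q genes summed to at least 20 UMIs (unique molecular identifiers, each 1 captured RNA molecule) and Cd300e, Clec4b1 and Pparg to at least 3. Vcam1, Ccl8 and Folr2 had to sum to under 5 UMIs, the T cell genes Cd3d, Cd3e and Cd3g to at most 1, and mitochondrial transcripts to at most 10% of the UMIs. The rule found 406 of 5167 cells, and they are called gated cells below.

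The cells came from C57/BL6 mice aged 10 weeks, with LLC tumors taken 14 days after subcutaneous implantation of the cell line. Mice with loxP-flanked miR-21 and no Cre (miR-21fl/fl) were compared with LysMCre;miR-21fl/fl mice, in which Cre is driven from the lysozyme M locus Lyz2 and deletes the microRNA in cells that use that promoter, such as macrophages and neutrophils. The floxed alleles were thus shared by both groups. Cells of 3 mice were pooled into 1 droplet library (10x Genomics 3′ version 2) for each genotype, and the titles of the libraries are wt and cko. The source descriptions give these genotypes in the opposite order, and one protocol names a gate on CD11b, MHCII and F4/80 where the design text names CD45+ cells, so wt and cko stand here for the titles alone.

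Macrophages of tumors arise mostly from blood monocytes, which lose monocyte genes and gain C1q as they mature. C1q starts the classical complement cascade and helps phagocytes take up dying cells. CD300E is an activating receptor of monocytes and macrophages that signals through DAP12, CLEC4B1 is a C-type lectin receptor of mouse myeloid cells, and PPARG and LXRα (gene Nr1h3) are nuclear receptors that control lipid handling in macrophages. Mouse blood also holds non-classical monocytes, a patrolling Ly6c2-low form that depends on NR4A1 and expresses Cd300e, Treml4 and Ace.

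With 1 library per genotype the difference between genotypes had no replicate. Differences between cell classes were seen in both libraries, but the classes were cut from the same counts, so no test was made of either. Each value is therefore given for both libraries with a 95% interval that covers counting error only, neither the spread between mice nor that between single cells. Levels are CPM, the UMIs of a gene per 1000000 UMIs of all cells of the class added together. The library labelled wt held 2449 cells and that labelled cko held 2718, of which 2445 and 2704 passed the mitochondrial limit. Lyz2 was lower in the gated cells labelled cko, with 5304 CPM against 12462 CPM, which follows the titles and not the source descriptions. The libraries shared 5 cell barcodes.

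The rule took 149 cells of the library labelled wt and 257 of that labelled cko. This was 6.09% (exact Clopper-Pearson interval 5.18 to 7.12) and 9.50% (8.42 to 10.7) of the cells kept, a ratio of 1.56 (1.27 to 1.92). Of the cells that reached the C1q limit, 746 and 942, the gated cells made up 19.97% and 27.3%, a ratio of 1.37 (1.11 to 1.68). A larger share of cells with these genes in the library labelled cko was already known when the rule was set, so the ratio only describes the 2 pools. Other C1q macrophages with low Ly6c2 had a ratio of 1.21 (1.00 to 1.45) among the cells kept and of 1.06 (0.879 to 1.27) among cells at the C1q limit. C1q cells with at least 2 Ly6c2 UMIs, the monocyte-like end of the C1q cells, had 0.745 (0.599 to 0.927) and 0.653 (0.524 to 0.812).

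**Figure D1:**
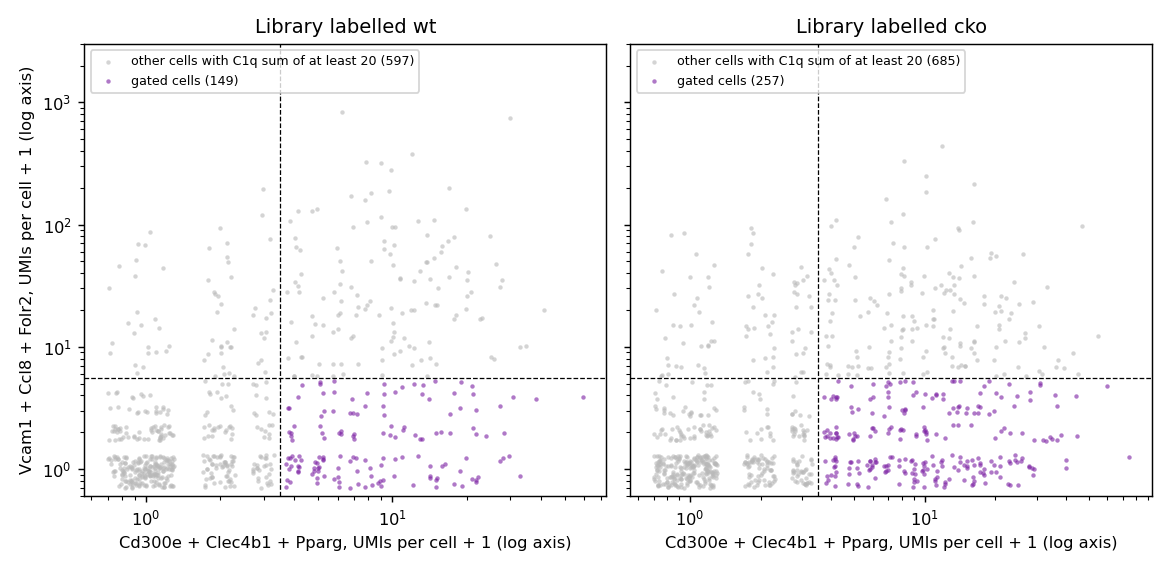
Each point is 1 cell with a C1q sum of at least 20 UMIs, at its UMIs of Cd300e, Clec4b1 and Pparg plus 1 (x) and of Vcam1, Ccl8 and Folr2 plus 1 (y), both on log axes with a small random shift, and dashed lines mark the limits. The 149 gated cells labelled wt and 257 labelled cko (purple) fill the lower right field without a gap to their neighbours.

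The limits are raw UMI numbers, and depth differed between the classes. The gated cells had a median of 13725 UMIs labelled wt (range 4060 to 37029) and 11992 labelled cko (3276 to 37324), and the other Ly6c2-low C1q macrophages 8935 and 8642. Cells over both the Cd300e group limit and the Vcam1 group limit, 136 and 173 in number, were deeper still at 20386 and 19522 UMIs. When every limit was applied to UMIs per 10000 of the cell, the gated shares were 5.77% and 9.84% and their ratio 1.71. At the edge of the rule, 25 and 34 gated cells had a sum of exactly 3 UMIs of Cd300e, Clec4b1 and Pparg, and 44 and 62 cells just outside had 2. The C1q sum lay between 20 and 29 UMIs in 5 and 11 gated cells and between 10 and 19 in 5 and 13 cells left out. The Vcam1 group sum was 4 UMIs in 11 and 18 gated cells and 5 in 8 and 14 cells left out.

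Positions are given on GRCm38 (GENCODE vM21 annotation). Cd300e is at chromosome 11, 115051917 to 115062177, Clec4b1 at chromosome 6, 123049962 to 123071555, and Pparg on the same chromosome at 115360951 to 115490399. C1qa, C1qc and C1qb lie side by side on chromosome 4 between 136880129 and 136898803, and Nr1h3, which the rule did not use, is at chromosome 2, 91184061 to 91202834.

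Cd300e and Clec4b1 gave most of the UMIs that chose the cells. Cd300e stood at 301 CPM labelled wt and 420 CPM labelled cko, Clec4b1 at 300 and 376 CPM, and Pparg, the weakest of the group, at 76.5 and 135 CPM. At least 1 UMI of Cd300e was seen in 79.9% and 87.9% of gated cells, of Clec4b1 in 81.2% and 88.7%, and of Pparg in 59.1% and 72.8%. In T cells, which should lack them and were shallower at a median of 5812 and 7098 UMIs, the same shares were 3.23% and 6.63% for Cd300e, 4.52% and 3.06% for Clec4b1, and 3.87% and 1.53% for Pparg. After each cell was thinned to 3000 UMIs, Pparg was seen in 22.1% and 32.7% of gated cells and in 1.94% and 1.02% of T cells. All these values were used by the rule and describe it.

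The 3 genes were often seen in the same cell. All of them had a UMI in 54 of 149 gated cells labelled wt (36.2%) and in 148 of 257 labelled cko (57.6%), while Pparg alone brought in 2 and 4 cells. Cd300e led in 66 and 116 cells, Clec4b1 in 61 and 101, Pparg in 11 and 17, and the rest were tied.

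Cells led by Cd300e and by Clec4b1 differed in Ace, Plac8 and Apoe. Ace, the angiotensin-converting enzyme found on non-classical monocytes, stood at 38.1 and 39.8 CPM in Cd300e-led cells and at 5.19 and 20.1 CPM in Clec4b1-led cells. Plac8, a gene of monocytes, stood at 1488 and 817 CPM against 453 and 561 CPM. Ccr2 was alike, at 290.5 and 247 CPM against 289 and 241 CPM, and Treml4 had no common direction, at 126 and 210 CPM against 147 and 182 CPM. Apoe, which carries cholesterol out of macrophages, went the other way with 954 and 2350 CPM against 2174 and 3836 CPM, and the median C1q sum was 120 and 124 UMIs against 199 in both libraries. The few Pparg-led cells had hardly any Cadm1 (7.62 and 24.2 CPM) or Stmn1 (7.62 and 24.2 CPM), where both other groups had over 119 CPM of each. The leading gene was picked from the same counts, so these values describe the cells and were not tested.

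As a check of the name, 13 genes of macrophage identity all had UMIs in the gated cells. Adgre1, which encodes F4/80, stood at 404 and 362 CPM, the growth factor receptor gene Csf1r at 493 and 496 CPM, Cd68 at 889 and 845 CPM, and Ms4a7 at 704 and 569 CPM. T cells also had UMIs of all 13, so only the levels inform the check. The summed level of the 13 genes was 7346 and 8714 CPM, against 756 and 943 CPM in T cells. It was higher in other C1q macrophages (8323 and 11396 CPM) and in C1q macrophages with Vcam1, Ccl8 or Folr2 (11488 and 16571 CPM). Ly6c2-positive C1q cells had 7336 and 8650 CPM. Of 13 dendritic cell genes, 8 and 11 had a UMI, with a summed level of 431 and 455 CPM against 433 and 489 CPM in other C1q macrophages. Most of it was Napsa at 231 and 254 CPM and Itgax at 96.1 and 122 CPM, while Flt3 and Zbtb46, which define dendritic cells, had 0 UMIs labelled wt and 2 and 1 labelled cko. Cd79a and Ms4a1 of B cells and Col1a2 of fibroblasts had 0 UMIs, and Pecam1, which endothelial cells and some leukocytes express, stood at 94.7 and 117 CPM. Of 11 lymphoid genes, 9 and 8 had a UMI, and their summed level of 49.9 and 36.7 CPM was far under the 8529 and 6916 CPM of T cells. Of 8 neutrophil genes, 7 had a UMI in each library, with S100a8 at 369 and 319 CPM and a summed level of 805 and 656 CPM, close to the 885 and 709 CPM of other C1q macrophages. The part of free RNA in these values was not tested.

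Nr1h3 was not part of the rule. In gated cells 251 UMIs were found in the library labelled wt, or 117 CPM, and 526 UMIs, or 158 CPM, in the other, while other Ly6c2-low C1q macrophages stood at 59.1 and 61.7 CPM. The C1q macrophages with Vcam1, Ccl8 or Folr2 and without the Cd300e group, 66 and 81 cells called Vcam1-type below, had as much, 151 and 158 CPM. T cells had 8.00 and 7.89 CPM. A high Nr1h3 level was therefore shared by both groups of C1q macrophages and was not particular to the gated cells.

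**Figure D2:**
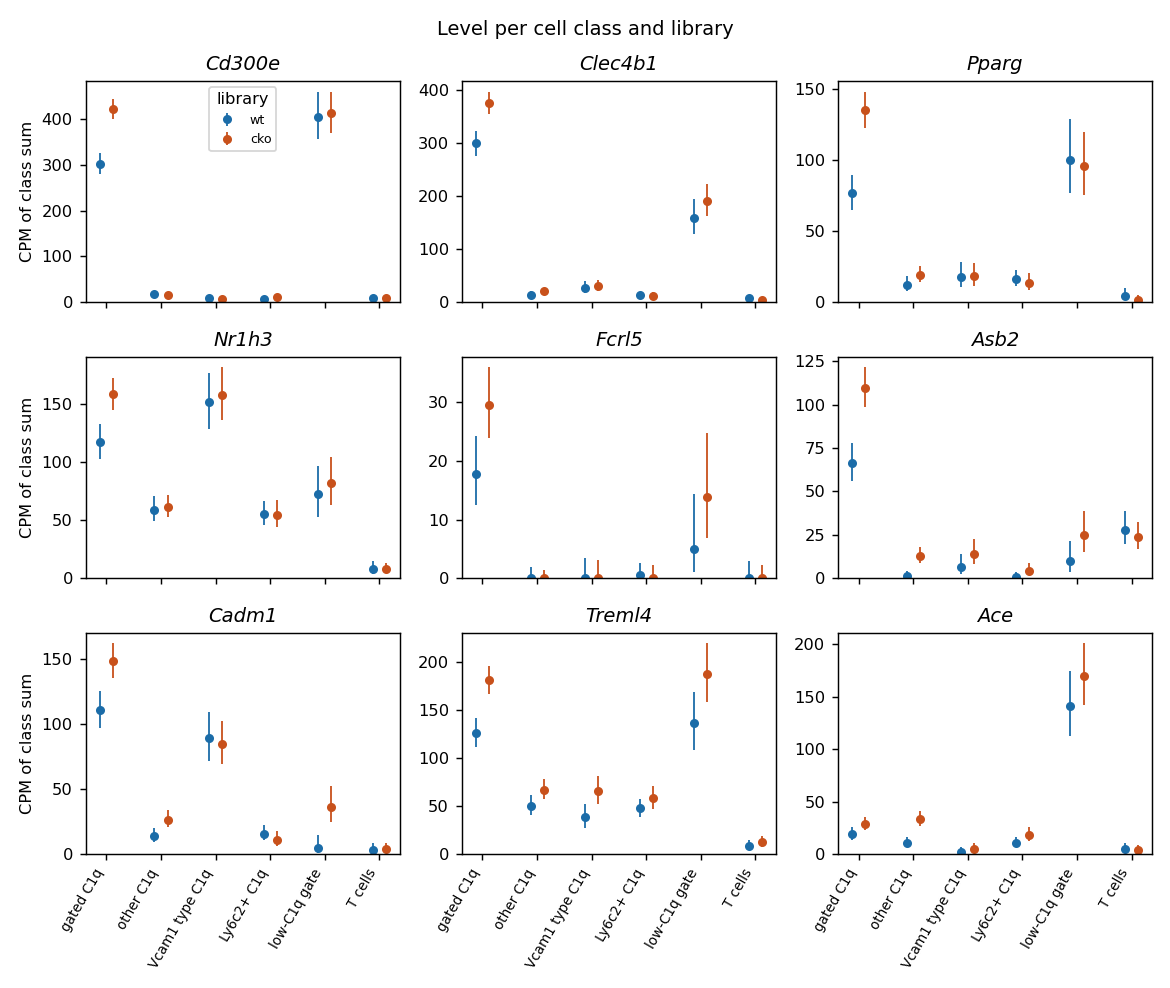
Levels of 9 genes (CPM of the UMIs of a class, with 95% Poisson intervals) are shown for 6 cell classes in the libraries labelled wt (blue) and cko (orange). Fcrl5 was at 17.7 and 29.5 CPM in gated cells and at 0 in both libraries in other C1q and Vcam1-type cells, while Nr1h3 was 117 and 158 CPM in gated and 151 and 158 CPM in Vcam1-type cells, and Ace was highest in the low-C1q cells.

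The first comparison asked how gated cells differed from the 207 and 276 other Ly6c2-low C1q macrophages of the same library, which stayed under the limits of both gene groups of the rule. Cell cycle genes, the receptor gene Fcrl5, Asb2 and Cadm1 were higher in gated cells. The chemokines Ppbp and Pf4, osteopontin (Spp1) and thrombospondin 1 (Thbs1) were lower. A gene was counted when the CPM ratio was at least 2-fold in the same direction in both libraries. Of 8401 genes with at least 50 UMIs, 203 were higher (2.42%) and 96 lower (1.14%), and the median log2 ratio of all of them was 0.07 and 0.06. Among cells of 8000 to 16000 UMIs in both classes 76 genes were higher, 50 of them among the 203, and 79 lower, 56 of them among the 96. As the same cells' RNA chose the classes, this is a description and no test.

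Fcrl5 (chromosome 3, 87435773 to 87500678), an Fc receptor-like gene known best from B cells, led the higher genes. It had 38 UMIs in 19 of 149 gated cells labelled wt and 98 UMIs in 46 of 257 labelled cko. None was found in other Ly6c2-low C1q macrophages, at 0 of 207 and 0 of 276 cells. With 3 put in place of 0, this allows a share of cells with a UMI of up to 1.45% and 1.09% at their lower depth. The upper limits of the exact intervals were 1.77% and 1.33%. After thinning to 3000 UMIs, 4.03% and 5.45% of gated cells kept a UMI, so these limits say nothing of cells that express the gene below detection. With 3 counts put in place of 0 in each library, the log2 ratio was at least 3.56 and at least 4.67, and the lower limits of the exact intervals, which also cover the counting error of the gated cells, were 3.19 and 4.35. Fcrl5 was also seen in the cells with the Cd300e group and few C1q UMIs, with 3 and 11 UMIs in 4.22% and 9.78% of them, and cells over both limits held 11.1% and 12.98% of its UMIs. None was found in Vcam1-type cells or T cells. With 3 put in place of 0, the 0 of 155 and 0 of 196 T cells allow a share with a UMI of up to 1.94% and 1.53%. The exact upper limits were 2.35% and 1.86%. Of all Fcrl5 UMIs of a library, 70.4% and 74.8% lay in the gated cells, more than the 42.7% and 52.7% of Cd300e, which had chosen them. One cell held 26.3% of the Fcrl5 UMIs labelled wt.

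Apart from cell cycle genes, Asb2, Cadm1 and BC049352 were the others among the 12 leading genes. Asb2, part of a ubiquitin ligase that targets filamins (chromosome 12, 103321142 to 103356001), stood at 66.2 and 110 CPM in gated cells and at 1.502 and 12.7 CPM in other C1q macrophages, log2 ratios of 5.46 (3.89 to 7.76) and 3.11 (2.59 to 3.67). Cadm1, a cell adhesion molecule (chromosome 9, 47530173 to 47857637), stood at 111 and 149 CPM against 14.0 and 26.6 CPM, log2 ratios of 2.98 and 2.48. BC049352 (chromosome 9, 45182007 to 45250020) stood at 89.1 and 126 CPM against 19.03 and 27.0 CPM. Cadm1 was seen in 71 and 150 gated cells and BC049352 in 75 and 143, and no cell gave over 8.82% of their gated UMIs. Asb2 was seen in 39 and 100 gated cells, and 1 of them gave 15.5% of its UMIs labelled wt. Asb2 and Cadm1 were also seen in cells over both limits, which held 39.8% and 34.9% of the Asb2 UMIs of a library and 50.8% and 45.4% of those of Cadm1. Asb2 was not absent from T cells, at 28.0 and 23.7 CPM. Vcam1-type cells had 89.1 and 84.65 CPM of Cadm1, with a UMI in 37.9% and 48.15% of them. In gated cells that share was 47.65% and 58.4%. Cadm1 was therefore shared by both groups of C1q macrophages and was not particular to the gated cells.

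The other 8 of the 12 leading genes belong to the cell cycle. Stmn1, a regulator of microtubules, stood at 221 and 306 CPM against 43.6 and 45.5 CPM (log2 ratios 2.35 and 2.75). Birc5, which encodes survivin, stood at 97.9 and 117 CPM against 17.0 and 19.7 CPM, and Ccnb2, cyclin B2, at 44.8 and 35.5 CPM against 2.00 and 5.79 CPM. The histone chaperone Asf1b, the ubiquitin-conjugating enzyme Ube2c, the PCNA partner 2810417H13Rik, and the nucleotide enzymes Rrm2 and Tk1 had log2 ratios between 2.22 and 2.91 in both libraries. Of the 20 listed cell cycle genes, 17 were at least 2-fold higher in both libraries and none lower, with a median log2 ratio of 2.38 and 2.05. Tubb5, Hmgb2 and Pcna fell short of 2-fold in at least 1 library. The size of these ratios moved with the limits. With a Cd300e group sum of at least 5, the ratios labelled wt were 2.98 for Asb2, 1.28 for Ccnb2, 1.21 for Birc5 and 1.16 for Ube2c. Ube2c was under 2-fold labelled wt with limits per 10000 UMIs (0.78), and so was 2810417H13Rik among cells of 8000 to 16000 UMIs (0.20).

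**Figure D3:**
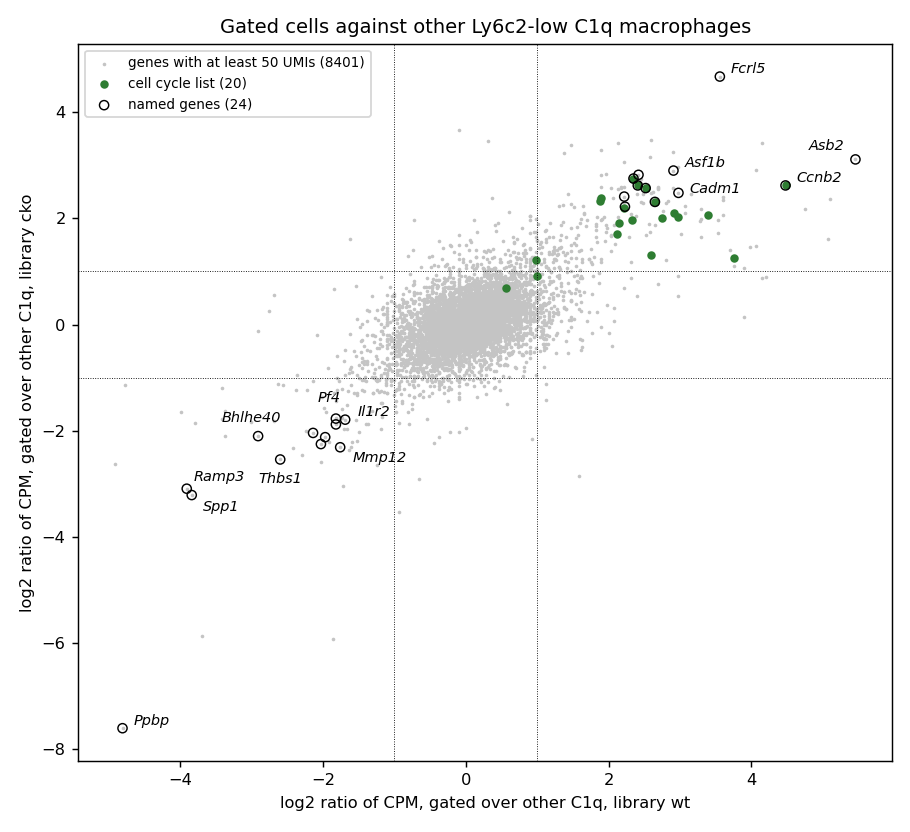
Log2 ratio of CPM of gated cells over other Ly6c2-low C1q macrophages in the library labelled wt (x) and cko (y) for 8401 genes, with a count of 0 set to 3, cell cycle genes in green and the 24 named genes circled; dotted lines mark 2-fold. Of the 20 cell cycle genes, 17 lie past 2-fold on both axes, and Fcrl5 and Asb2 stand apart from them.

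The cell cycle genes came from a minority of the cells. At least 5 UMIs of 12 genes of S phase and mitosis were found in 24 of 149 gated cells labelled wt (16.1%, interval 10.6 to 23.0) and in 45 of 257 labelled cko (17.5%, 13.1 to 22.7). In other Ly6c2-low C1q macrophages these were 5 of 207 (2.42%) and 7 of 276 (2.54%), in Vcam1-type cells 18.2% and 17.3%, and in cells over both limits, the deepest class, 27.9% and 34.1%. Among cells of 8000 to 16000 UMIs the shares were 9.33% (3.84 to 18.3) and 8.21% (4.17 to 14.2) of gated cells and 1.69% (0.206 to 5.99) and 1.32% (0.161 to 4.70) of other C1q macrophages. After thinning to 3000 UMIs, at least 2 UMIs remained in 12.8% and 18.7% of gated cells and in 2.90% and 5.07% of other C1q macrophages. The gated cells over this limit were deeper than the other gated cells, at medians of 22282 and 17579 UMIs against 12917 and 11623. The part of depth in the difference was not tested beyond the thinned and depth-matched shares. The shares of the Vcam1-type cells were of the same order, so cell cycle genes were not particular to the gated cells among C1q macrophages.

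**Figure D4:**
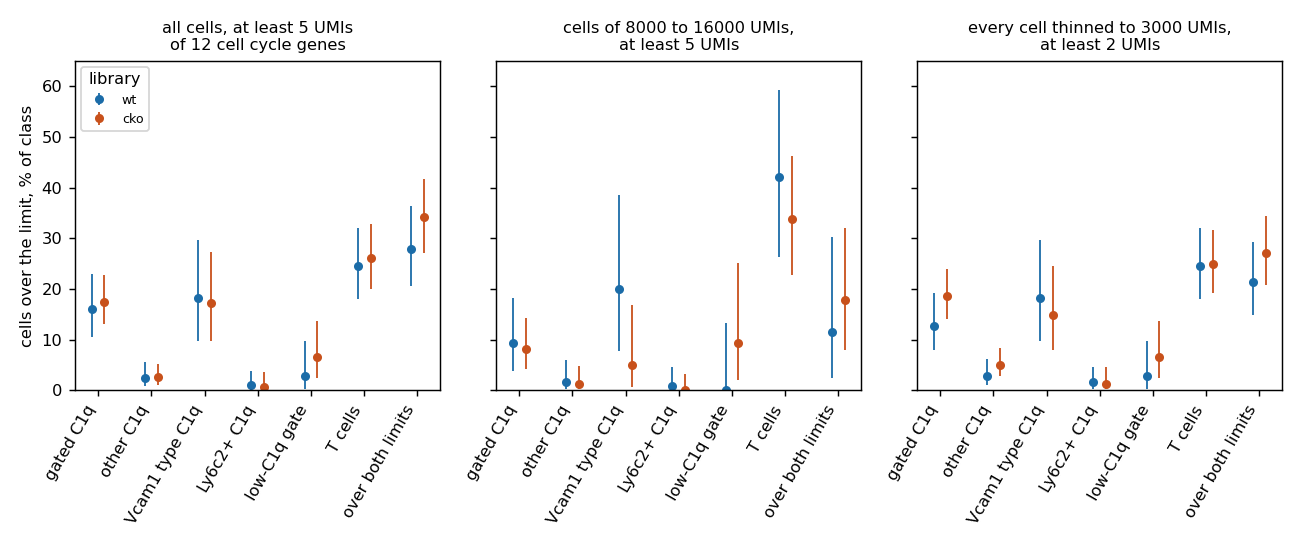
Percent of cells (with exact 95% intervals) over a limit on 12 cell cycle genes in 7 cell classes, for all cells, for cells of 8000 to 16000 UMIs and after thinning each cell to 3000 UMIs, in the libraries labelled wt (blue) and cko (orange). Gated cells were at 16.1% and 17.5% and other C1q macrophages at 2.42% and 2.54% over all cells, and among cells of 8000 to 16000 UMIs the gated cells were at 9.33% and 8.21% and other C1q macrophages at 1.69% and 1.32%.

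Leaving out the cells over the cell cycle limit in both classes reduced the number of higher genes from 203 to 68, of which 56 were among the 203, and changed the lower genes from 96 to 86. That limit used 12 of the 20 listed cell cycle genes, so the fall of these 12 was fixed by the choice of cells. Of the other listed genes 4 were higher, Mcm2, Mcm3, Mcm5 and Mcm6, with Mcm3 at log2 ratios of 1.53 and 1.21. They encode subunits of the helicase that opens DNA for replication. Stmn1 had log2 ratios of 0.94 and 1.33. The genes that then led were Fcrl5, Asb2, Cadm1 and BC049352, followed by Siglece, Slamf9, Pou2f2, Ckb, Spic, Acp5, Ccnd2 and Eno3. Siglece, an inhibitory sialic acid receptor, stood at 122 CPM in the gated cells labelled wt against 33.7 CPM (log2 ratio 1.85, and 2.39 labelled cko). Pou2f2, the transcription factor OCT2, had log2 ratios of 2.02 and 1.58, and Spic, a transcription factor of iron-recycling macrophages, of 1.69 and 2.30. Acp5, an acid phosphatase of osteoclasts and macrophages, was the most abundant of them at 555 CPM labelled wt (log2 ratios 1.29 and 1.24). Nr1h3 kept log2 ratios of 1.10 (0.76 to 1.44) and 1.38 (1.11 to 1.65) in these cells.

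Ppbp and Spp1 led the lower side. Ppbp, the platelet chemokine CXCL7, had 10 and 3 UMIs in gated cells and 261 and 453 in other C1q macrophages, but 1 cell held 60.5% of the latter labelled cko. Spp1 stood at 38.7 and 69.3 CPM against 555 and 641 CPM, log2 ratios of -3.84 (-4.18 to -3.52) and -3.21 (-3.42 to -3.01). Thbs1, thrombospondin 1, stood at 28.9 and 23.8 CPM against 176 and 138 CPM. Pf4 (chromosome 5, 90772435 to 90773383), a chemokine of platelets and macrophages, stood at 355 and 168 CPM against 1251 and 572 CPM. F13a1, Mmp12, Clec4d, Il1r2, the decoy receptor of interleukin-1, and Gpr183, a receptor for oxysterols, had log2 ratios between -2.31 and -1.69. The early response gene Ier3 had log2 ratios of -2.03 and -2.25 and the repressor Bhlhe40 of -2.91 and -2.10. With a Cd300e group sum of at least 2, the ratios labelled wt were -2.50 for Spp1 and -3.19 for Ppbp, and among cells of 8000 to 16000 UMIs Il1r2 had -0.93 labelled wt. Ramp3, a calcitonin receptor partner, had 3 and 0 UMIs in gated cells against 42 and 20.

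Against the 1.14% of all genes that were lower, several lists had more lower members. Of 10 genes listed for angiogenesis or immune suppression with enough UMIs, 5 were at least 2-fold lower in both libraries and none was higher. Mmp9, Mmp12, Spp1 and Thbs1 were among the lower genes, and the median log2 ratio was -1.41 and -1.65. The list does not separate genes that promote vessel growth from genes that restrain it, so these values give no direction of angiogenesis. Of 10 classical monocyte genes, 4 were lower (Chil3, F10, Fn1 and Vcan) and none higher, with medians of -1.08 and -1.20. Ccr2, the receptor that brings monocytes into tumors, stood at 293 and 259 CPM against 576 and 697 CPM. Of 9 genes of resident-like macrophages, 4 were lower (F13a1, Mrc1, Pf4 and Stab1) and none higher, with medians of -1.05 and -0.85. Of 13 genes of hypoxia and glycolysis, 3 were lower (Egln3, Ero1l and Slc2a1) and none higher, and of 8 further chemokines 3 were lower (Ccl6, Ccl24 and Cxcl1).

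The median of the non-classical monocyte genes was on the higher side. Of 12 genes, 3 (Eno3, Spn and Treml4) were at least 2-fold higher in both libraries, against 2.42% of all genes. The tetraspanin Cd9 was lower, and the median log2 ratio was 0.80 and 1.08. Non-classical monocytes express Cd300e, which helped choose the gated cells, so genes that accompany it were chosen with it. Spn, which encodes CD43, stood at 27.1 and 44.9 CPM against 9.51 and 9.64 CPM, and Treml4 at 126 and 182 CPM against 50.6 and 67.1 CPM. Ace differed in opposite directions in the libraries, with 19.1 CPM against 11.02 CPM labelled wt and 28.9 CPM against 33.2 CPM labelled cko.

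The targets of lipid nuclear receptors had no common direction. Of 21 genes of the LXR and PPAR list with enough UMIs, Angptl4 was higher (16 and 42 UMIs against 6 and 7) and Abca1 and Trem2 were lower, with median log2 ratios of -0.17 and 0.09. Abca1, the cholesterol exporter that LXR induces, stood at 4.66 and 5.72 CPM against 16.5 and 15.4 CPM, and Trem2, a lipid receptor, at 33.1 and 33.7 CPM against 129 and 106 CPM. Of 12 genes of antigen presentation by MHC class II and 18 interferon genes, none was past 2-fold in both libraries, with H2-Ab1 at 10695 and 9679 CPM against 11994 and 11981 CPM. None of 4 other CD300 family genes passed, with Cd300a at 432 and 423 CPM against 317 and 354 CPM. Among 11 further C-type lectins, Clec4d, Clec5a and Mrc1 were lower and none was higher. Of the rest, Ccl5 was higher and Cxcl2 and Ptgs2 lower among 11 inflammatory genes, Trem2 was lower among 13 macrophage genes, Ctsl among 15 lysosomal, Stab1 among 9 phagocytic, Ier3 among 16 early response and Mmp8 among 5 neutrophil genes. None passed in the lists of dendritic cells, cholesterol synthesis, reported miR-21 targets, lymphoid cells, tumor and stroma, or mast cells and plasmacytoid cells.

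The second comparison set the gated cells beside the Vcam1-type macrophages. Of 7913 genes, 96 were at least 2-fold higher in both libraries (1.21%) and 107 lower (1.35%). Non-classical monocyte genes gave 7 of 12 higher and none lower (Ace, Adgre4, Ear2, Gngt2, Nr4a1, Spn and Treml4), with medians of 1.42 and 1.89 against 0.01 and 0.03 for all genes. Genes that accompany Cd300e were again chosen with the gated cells. Adgre4, an adhesion receptor, stood at 83.5 and 108 CPM in gated and at 21.1 and 17.4 CPM in Vcam1-type cells. Fcrl5, Asb2, BC049352, Siglece and Pou2f2 led again, and Asb2 had log2 ratios of 3.30 and 2.96. Cell cycle genes had smaller ratios, with 1 of 20 past 2-fold (Rrm2) and medians of 0.63 and 0.44.

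Resident-like genes were on the other side. Of 10 genes, 8 were at least 2-fold lower in gated cells than in Vcam1-type cells (Cbr2, F13a1, Fcna, Gas6, Igf1, Mrc1, Pf4 and Stab1), with medians of -2.58 and -2.44. Pf4 stood at 355 and 168 CPM against 2641 and 2389 CPM. Gas6, the bridge to the phagocytic receptor MERTK, stood at 21.9 and 28.3 CPM against 215 and 178 CPM. The growth factor gene Igf1 had 6 and 10 UMIs in the gated cells against 44 and 49. Of 8 chemokines, 6 were lower (Ccl2, Ccl6, Ccl7, Ccl12, Ccl24 and Cxcl1), with Ccl12 at 134 and 154 CPM against 862 and 923 CPM. Of 18 interferon genes, Cxcl9, Cxcl10, Ifit1 and Rsad2 were lower. Vcam1, Ccl8 and Folr2 chose the class on the other side, so genes that accompany them were chosen with it.

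The third comparison used the 71 and 92 cells that had the Cd300e group but fewer than 20 C1q UMIs, at a median of 7460 and 7209 UMIs. Monocyte genes of both kinds were lower in the gated cells. Of 7648 genes, 93 were at least 2-fold higher (1.22%) and 106 lower (1.39%). Of 12 non-classical genes, 8 were lower and none higher, and of 10 classical genes, 7 were lower and none higher, with medians of -1.46 and -1.43 and of -1.45 and -1.66. Ace stood at 19.1 and 28.9 CPM in gated cells and at 141 and 170 CPM in low-C1q cells, and Ear2, a ribonuclease of non-classical monocytes, at 28.9 and 69.9 CPM against 371 and 447 CPM. Plac8 stood at 991 and 779 CPM against 5587 and 3713 CPM. Treml4, in contrast, was about as high in both, at 126 and 182 CPM against 136 and 188 CPM. On the higher side were Cadm1, Asb2, the tetraspanin Cd81 (676 and 950 CPM against 218 and 303 CPM), the phagocytic receptor Axl (84.0 and 111 CPM against 31.2 and 45.3 CPM), Gatm and Acp5. The low-C1q class also held dendritic cell genes, with Napsa at 759 and 800 CPM and a summed dendritic level of 1118 and 1148 CPM against 431 and 455 CPM in gated cells.

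The last comparison, between the genotypes, set the 257 gated cells labelled cko against the 149 labelled wt. Lyz1, Apoe, Ddit4 and Fabp4 were higher labelled cko, and Lyz2 and Tgfb1 lower. Of 7053 genes with at least 50 UMIs, 48 were at least 2-fold higher (0.681%) and 21 lower (0.298%), with a median log2 ratio of 0.03. Among cells of 8000 to 16000 UMIs, where 4882 genes had at least 50 UMIs, 67 genes were higher, 13 of them among the 48, and 18 lower, 4 of them among the 21. With the mean of cell CPM 87 were higher, 39 of them among the 48. In other Ly6c2-low C1q macrophages 38 of 6455 genes were higher (0.589%) and 20 lower (0.31%). Of the 30 higher genes that had 50 UMIs there, 6 were past 2-fold in the same direction and 22 on the same side of 0, and of 12 lower genes, 5 and 11. A pool of 3 mice stands behind each value, so genotype and pool cannot be told apart.

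Both lysozyme genes differed. Lyz2 (chromosome 10, 117277331 to 117282321), whose locus carries the Cre, stood at 12462 CPM (wt) and 5304 CPM (cko), with a log2 ratio of -1.23 (-1.26 to -1.20). Its neighbour Lyz1 (117287797 to 117292868) stood at 23.3 and 219 CPM, log2 3.23 (2.82 to 3.68), from 50 and 728 UMIs. No cell gave over 8% of its UMIs in either library. The same contrast was found in other Ly6c2-low C1q macrophages (Lyz1 2.42, Lyz2 -1.16), in Vcam1-type cells (3.31 and -0.64) and in low-C1q cells (2.49 and -1.26). The 2 genes are close copies, and how the authors' counting treated reads that fit both was not tested, so the level of Lyz1 is uncertain.

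Apoe was the most abundant of the higher genes. It stood at 1587 CPM labelled wt and 3365 CPM labelled cko in gated cells, log2 1.08 (1.03 to 1.14). In T cells it stood at 111 and 336 CPM, so the level in cells that should lack it also differed between the libraries, and the part of free RNA was not tested. Other Ly6c2-low C1q macrophages had a log2 ratio of 1.33, Vcam1-type cells of 1.15 and low-C1q cells of 0.99, so the ratio was of a like size in the 4 classes. Ddit4, a stress-induced inhibitor of mTOR, stood at 45.2 and 168 CPM (log2 1.90, 1.58 to 2.22) and had 1.43 in other C1q macrophages but 0.17 (-0.43 to 0.77) in Vcam1-type cells. Tgfb1, the cytokine TGF-β1, stood at 533 and 193 CPM (log2 -1.47, -1.61 to -1.33), and had -1.48, -1.29 and -1.53 in the other 3 classes. Pf4 stood at 355 and 168 CPM (log2 -1.08) and had -1.13 in other C1q macrophages but -0.14 in Vcam1-type cells. Its log2 ratio in gated cells was under 2-fold in 7 alternatives, from -0.91 without the top cell of each library to 0.02 with limits per 10000 UMIs. Apoe had 0.97 with a Cd300e group sum of at least 5. In T cells Tgfb1 stood at 175 and 65.5 CPM and Pf4 at 75.2 and 20.6 CPM, so these too differed between the libraries in cells of another kind, and the part of free RNA was not tested.

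Several of the named genes had smaller ratios in other C1q macrophages than in gated cells. Id2, a repressor of bHLH factors, stood at 78.8 and 185 CPM (log2 1.23, 0.98 to 1.49) against 0.12 (-0.09 to 0.32) there and 0.67 in Ly6c2-positive C1q cells, but was under 2-fold with a Cd300e group sum of at least 2 (0.94) and among cells of 8000 to 16000 UMIs (0.72). The chemokine Ccl3 stood at 29.4 and 73.8 CPM (log2 1.33) against 0.31, with 1.20 (0.77 to 1.63) in Ly6c2-positive C1q cells and 0.79 in Vcam1-type cells. Fabp4, a fatty acid-binding protein whose gene PPARG induces, had 7 and 71 UMIs (3.27 and 21.4 CPM, log2 2.71, 1.59 to 4.08) against -0.53 (-1.53 to 0.46), and low-C1q cells had 2.49 and Ly6c2-positive C1q cells 2.36. Serpinb1a had 4 and 56 UMIs, Arhgap31 8 and 50 (log2 2.01, against 0.59 in other C1q macrophages), and Pitpnc1 25 and 111. On the lower side the cytokine oncostatin M (Osm) had 45 and 12 UMIs, Irg1 57 and 22, and Cxcl10 stood at 146.9 and 62.0 CPM (log2 -1.24, against -0.33 in other C1q macrophages), with ratios from -0.95 to -0.38 in the 4 alternatives that took it under 2-fold. Ccl5 stood at 78.4 and 35.5 CPM and had a log2 ratio of -1.14 in both classes, but 1.08 (0.89 to 1.26) in Ly6c2-positive C1q cells and -2.36 in low-C1q cells. In Osm, Irg1 and Cxcl10 single cells gave 37.8%, 40.4% and 27.6% of the UMIs labelled wt.

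In 3 of the named genes 1 cell decided the ratio. Gzma, a granule protease of killer lymphocytes, had 8 and 81 UMIs, of which 72 lay in 1 gated cell labelled cko, and without the top cell of each library the log2 ratio was -0.05. Gm15056 had 71 and 0 UMIs, of which 70 lay in 1 cell labelled wt, so no ratio is given. Cox6a2 had 37 and 21 UMIs, of which 23 lay in 1 cell labelled wt, and its log2 ratio was -1.45 with and -0.35 without the top cells. The lymphoid genes summed to 49.9 and 36.7 CPM.

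**Figure D5:**
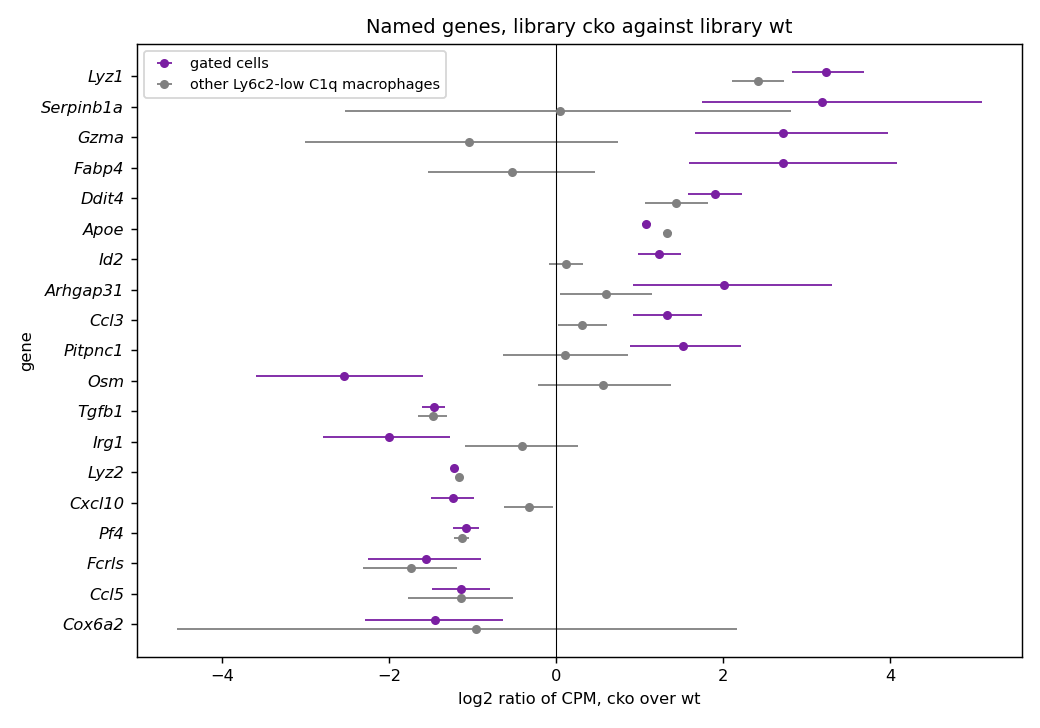
Log2 ratio of CPM (cko over wt; bars, exact 95% counting intervals) of 19 named genes in gated cells (purple) and in other Ly6c2-low C1q macrophages (grey). Lyz1, Ddit4, Apoe, Arhgap31, Ccl3, Tgfb1, Lyz2, Cxcl10, Pf4, Fcrls and Ccl5 lie on the same side in both classes, while the grey intervals of Serpinb1a, Gzma, Fabp4, Id2, Pitpnc1, Osm, Irg1 and Cox6a2 hold 0.

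Most of the 12 genes that led against other C1q macrophages had small ratios of cko over wt, and none was 2-fold. Asb2 had a log2 ratio of 0.73 (0.44 to 1.02), Fcrl5 of 0.74 (0.18 to 1.32) and Cadm1 of 0.42 (0.20 to 0.65), while Ccnb2 had -0.33 (-0.73 to 0.07). Nr1h3 had 0.44 (0.22 to 0.66). In other C1q macrophages Nr1h3 had 0.06 and Cadm1 0.92, and Asb2, with 3 and 33 UMIs there, had 3.08. Among 19 genes of the LXR and PPAR list, Fabp4 and Abcg1 were past 2-fold and none was lower, where 0.681% of all genes were higher. In the list 14 lay above 0 and 5 below, with a median of 0.22 (0.03 over all genes). Other C1q macrophages had a list median of -0.09. With a Cd300e group sum of at least 2 or at least 5, or with limits per 10000 UMIs, 1 gene of the list was past 2-fold. Abcg1, a cholesterol exporter, stood at 46.6 and 98.2 CPM (log2 1.07, 0.75 to 1.41) and had 0.42 in other C1q macrophages.

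Of 14 reported miR-21 targets with enough UMIs, 1 was at least 2-fold higher labelled cko (Sp1, 14 and 49 UMIs) and none lower. Of all genes 0.681% were higher and 0.298% lower. In the list 13 lay above 0 and 1 below, and the median was 0.42, against 0.03 in other C1q macrophages. No gene of the list was 2-fold higher with a Cd300e group sum of at least 2 or at least 5, with a Vcam1 group sum under 3 or without cycling cells. Stat3 stood at 61.6 and 90.03 CPM, Tgfbi at 1378 and 1886 CPM and Pdcd4, a translation inhibitor, at 8.86 and 9.94 CPM. Il12a, which encodes a subunit of interleukin-12 and is also a reported target, had no UMI in gated cells of either library, and Il12b had 0 and 2. A shift of this size was not confined to that list, since 12 hypoxia and glycolysis genes had a median of 0.46 with 11 above 0, Bnip3 alone past 2-fold (no gene with a Cd300e group sum of at least 2 or with limits per 10000 UMIs), and 11 non-classical monocyte genes a median of 0.52 with Ear2 and Fabp4 past it (none among cells of 8000 to 16000 UMIs).

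The other lists had smaller medians or mixed signs, beside 0.681% of all genes at least 2-fold higher and 0.298% lower. Of 11 MHC class II genes 10 lay below 0 with a median of -0.08, of 15 lysosomal genes 12 lay below with a median of -0.06, and of 18 interferon genes 11 lay below with a median of -0.14 and Cxcl10 past 2-fold. The 20 cell cycle genes had a median of 0.25 with none past 2-fold, and the 16 early response genes, which dissociation of tissue can induce, a median of 0.33 in gated cells and 0.55 in other C1q macrophages. Of 9 inflammatory genes Ccl3 was higher and Ccl5 lower, of 8 genes of angiogenesis and suppression Tgfb1 was lower with 7 below 0, of 9 resident-like genes Pf4 was lower, and of 11 C-type lectins Mgl2 was lower. Apoe was the 1 gene of 13 macrophage genes past 2-fold, and no gene passed in the lists of classical monocytes, the CD300 family, phagocytosis, cholesterol synthesis, further chemokines or neutrophils. Single calls of lists depended on the settings. With a Cd300e group sum of at least 2 no C-type lectin or interferon gene was lower, with a Vcam1 group sum under 3 no C-type lectin, resident-like or inflammatory gene was lower, and with a Cd300e group sum of at least 5 no macrophage gene was higher.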

How the data were processed

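The authors made the files with Cell Ranger and Seurat on mm10, per the submitters' processing notes (versions not given in the sources used here). The deposited values are raw UMI counts per gene and cell, with 27998 genes in both libraries, and were not normalized. The libraries held 24492486 UMIs in 2449 cells (wt) and 27163485 UMIs in 2718 cells (cko), and cells had been called and shallow barcodes left out before deposit. The members and the 24 gene lists were chosen with earlier results of these data known.

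UMI counts were summed per class and library with Python 3.11.15, numpy 2.4.6 and scipy 1.17.1. A gene needed at least 50 UMIs over the cells compared. Genes of the rule, mitochondrial genes, Xist and Y-linked genes were left out, and so was Ly6c2 against other C1q macrophages. Ratios have exact conditional binomial intervals at 95%, levels Poisson and shares Clopper-Pearson intervals, all for counting error only. A count of 0 was set to 3 for a bound. With 1 library per group no test was made. For each class comparison, genes were ranked by the interval bound nearest 0 in the less extreme library, and the first 12 in each direction were named. For cko against wt, the same ranking on the single interval gave 10 genes in each direction. Further genes are examples from the lists or were chosen after their values were seen. Other C1q macrophages had at most 1 Ly6c2 UMI, and T cells at least 3 Cd3 UMIs. The scripts were tested on simulated counts. Doublets stayed in the classes. Scrublet (scanpy 1.11.5) called 0 and 5 cells by its own threshold, so its top scores, 48 and 59 cells, were removed only as an alternative, which took 5 of 149 and 9 of 257 gated cells. Other alternatives changed the limits, the gene minimum, the scaling and the cells used. Coordinates are from GENCODE vM21 (GRCm38). Values of some listed genes are not reported here.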

Additional observations from a re-analysis of the deposited data

Results flagged for a closer look

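Fabp4 differed in opposite directions between the libraries when gated cells were set against other Ly6c2-low C1q macrophages. The log2 ratio was 1.62 labelled cko (71 UMIs against 18) and -1.62 labelled wt (7 UMIs against 20). The difference was not tested, as there was 1 library per genotype.

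Cenpe, a motor protein of mitotic chromosomes, differed in opposite directions between the classes when cko was set against wt. The log2 ratio was -1.09 in gated cells (43 UMIs against 59) and 2.21 in other Ly6c2-low C1q macrophages (18 UMIs against 3). This difference was not tested either. Both genes were picked from all genes by their opposite signs.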

How the results depend on the processing

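No paired analysis was possible because no result came from a test: each genotype had 1 library, and the cell classes, compared within each library, were cut from the same counts. The shares of gated cells (wt, cko) were 7.89% and 11.8% with a Cd300e group sum of at least 2, 4.13% and 7.51% with at least 5, and 5.07% and 7.88% with a Vcam1 group sum under 3. Their ratio lay between 1.49 and 1.82 under every alternative that changed the limits or removed the top Scrublet scores. The ratio was not computed under the others. The number of genes higher than in other C1q macrophages was 314 at a gene minimum of 20 UMIs and 70 at 200, where 51 were lower. It was 76 among cells of 8000 to 16000 UMIs and 68 without cycling cells, both chosen after seeing the data. For cko against wt, 176 genes were higher and 84 lower at a minimum of 20, and 8 and 5 at 200. With the mean of cell CPM 87 were higher, and without the top cell of each gene 83. The lower minimum tests more genes with few UMIs. For the other changes the cause was not tested. The log2 ratio of Pf4 (cko over wt) was 0.02 with limits per 10000 UMIs, that of Gzma -0.05 without its top cell, and that of Birc5 against other C1q macrophages -0.24 labelled wt without cycling cells. Birc5 was among the genes that defined cycling cells, so its fall was fixed in advance. Gm15056 gave no value without its top cell. Of 48 genes higher and 21 lower labelled cko, 13 and 4 were also past 2-fold among cells of 8000 to 16000 UMIs. Median-of-ratios scaling moved the median of all genes by under 0.1. Of 714 counts of list members under the alternatives, 120 differed from the reported count by over 1.5 times. Of 246 ratios of named genes for cko over wt, 37 left the reported interval and 2 changed sign, and of 648 against other C1q macrophages, 104 and 1. Fcrls had -0.87 with limits per 10000 UMIs and Ccl5 -0.95 with a Vcam1 group sum under 3.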

Other observations

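Some gated cells still held Ly6c2, a gene of classical monocytes. At least 2 UMIs were found in 39 of 149 gated cells labelled wt (26.2%) and in 32 of 257 labelled cko (12.5%), and the level was 163 and 93.0 CPM. The summed non-classical monocyte genes varied widely from cell to cell, with a median of 9.59 and 14.7 UMIs per 10000 and a range from the tenth to the ninetieth percentile of 3.69 to 31.3 and 4.48 to 35.6. Other Ly6c2-low C1q macrophages had medians of 6.22 and 7.38.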
